A study of Mus musculus with 9 samples.

Results

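The regions described here are intergenic ATAC-seq peaks of mouse naive CD4+ T cells whose midpoint lay at most 100 kb from the nearest transcription start site (TSS). ATAC-seq uses a transposase that inserts sequencing adapters into open chromatin, so a peak is a stretch of DNA that was accessible in the cells. The authors' table holds 115727 peaks on the mm9 genome. Of these, 41627 were annotated as intergenic, and 34217 of the intergenic peaks, which are 29.6% of all peaks, met the distance limit. The distance was taken to the closest of 17428 start sites of 16126 genes that the table itself lists. A gene without a listed peak could therefore not be the nearest one, and 14767 of 21896 protein-coding RefSeq genes were listed. The other 7410 intergenic peaks lay farther than 100 kb from a listed start site and are called desert peaks.

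The study profiled naive CD4+ T cells, isolated straight from the animal by negative selection and left untreated, in 3 genotypes with 3 libraries each. The groups were Stat6 KO (knockout of Stat6), Il21e KO and WT (wild type), all labelled C57BL/6. The second allele appears in the labels under the names Il21e KO and IL21KO, and the deleted interval is not given. Nor do the labels tell whether replicates come from separate animals, so p-values measure the spread between these libraries, which may be technical. The cells are a bulk population, in which fewer open cells and less open chromatin per cell cannot be told apart.

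Intergenic open chromatin near genes holds many of the enhancers of a lymphocyte, short elements that bind transcription factors and raise the output of a promoter on the same chromosome. An enhancer need not act on the closest gene, so the gene names below give position only. STAT6 is the transcription factor activated by interleukin-4 (IL-4), and it promotes Th2 differentiation. The cytokine IL-21 is made mainly by activated and follicular helper T cells, and its gene is largely silent in naive cells.

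The 9 libraries had from 1049460 to 1802405 reads in peaks, and levels are in CPM (reads in a peak, scaled to a fixed total of reads in all peaks). All 8 markers of naive CD4 T cells had a peak at the TSS, with a summed level of 199 to 267 CPM per library. Promoter peaks were also listed for 6 of 6 B cell markers, with 17.2 to 45.1 CPM in sum, for 1 of 2 CD8 T cell markers, Cd8b1, with 30.0 to 40.5 CPM, and for 1 of 3 NK cell markers, with 0.612 to 3.88 CPM. They were listed for 2 of 6 myeloid markers, with 18.1 to 49.4 CPM, and for 1 of 4 erythroid markers, with 14.2 to 23.9 CPM. These sums cover different numbers of genes. Per gene with a TSS peak, the mean was 27.8 CPM for naive CD4, 35.1 for CD8 and 5.05 for B cell markers. It was 1.86 CPM for NK, 19.6 for myeloid and 18.7 for erythroid markers. The myeloid markers with a TSS peak were Cebpa, with 29.4 CPM, and Itgam, with 9.82 CPM. The other markers, Cd8a, Klrb1c, Klre1, Lyz2, Csf1r, S100a8, S100a9, Gata1, Klf1 and Alas2, had no listed TSS peak. The part of other cells in the results was not tested. The library Il21e KO 1 differed from the rest. Of the 34217 near-gene intergenic peaks, 8158 were without a read in it, against 1100 to 3502 in the other libraries, and its mean correlation with them was below their range of 0.838 to 0.866. Where its removal turned the direction of a result or changed a call, the value without it is given as well.

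Near-gene intergenic peaks were most numerous at middle distances. The median distance was 22.6 kb, with quartiles at 10.5 and 43.8 kb, and the closest peak lay 0.386 kb from a start site. The first 5 kb held 3141 peaks, the stretch of 5 to 10 kb held 4995, that of 10 to 25 kb held 10281, that of 25 to 50 kb held 8836, and the last 50 kb held 6964. Per kb of distance, the count was highest between 5 and 10 kb, at 999 peaks, and lowest beyond 50 kb, at 139. Upstream positions made up 67.3% of the peaks, but this share was 92.3% within 5 kb and 54.3% beyond 50 kb. Peaks annotated to a TSS, exon or intron are not in the set. The upstream shares and the count close to start sites therefore follow in part from the definition. At the limit itself, the 3 peaks just inside lay 99.97, 99.96 and 99.96 kb from Foxo3, Sox5os3 and Hira, with mean levels of 1.22, 24.3 and 0.833 CPM. The 3 just outside were nearest to Trat1, Gm15326 and Rxfp2.

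The peaks were also clustered. A second near-gene intergenic peak lay within 10 kb for 80.3% of them, and 71.6% had the start site of a further listed gene within 100 kb. They had a median length of 425 bp, against 386 bp for desert peaks and 1064 bp for TSS peaks.

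Median accessibility was higher close to genes. The median of the mean level was 5.09 CPM within 5 kb, 3.23 CPM at 5 to 10 kb, 3.40 CPM at 10 to 25 kb, 3.02 CPM at 25 to 50 kb and 2.83 CPM beyond 50 kb. This did not hold for the strongest peaks. The 90th percentile of the mean level was lowest within 5 kb, at 17.3 CPM, and 18.4 to 19.6 CPM in the other bins. Median peak length varied little between these bins, from 411 to 438 bp. Within each library, the median log2(CPM + 1) of peaks within 10 kb exceeded that of peaks beyond 50 kb by 0.20 to 0.44, with a mean of 0.34. The difference was positive in 9 of 9 libraries, with p = 0.00391 in an exact 2-sided sign-flip permutation test, the smallest p it can give. The order of the 5 bins was not strict, since peaks at 5 to 10 kb and at 10 to 25 kb had the same median in 9 of 9 libraries.

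**Figure D1:**
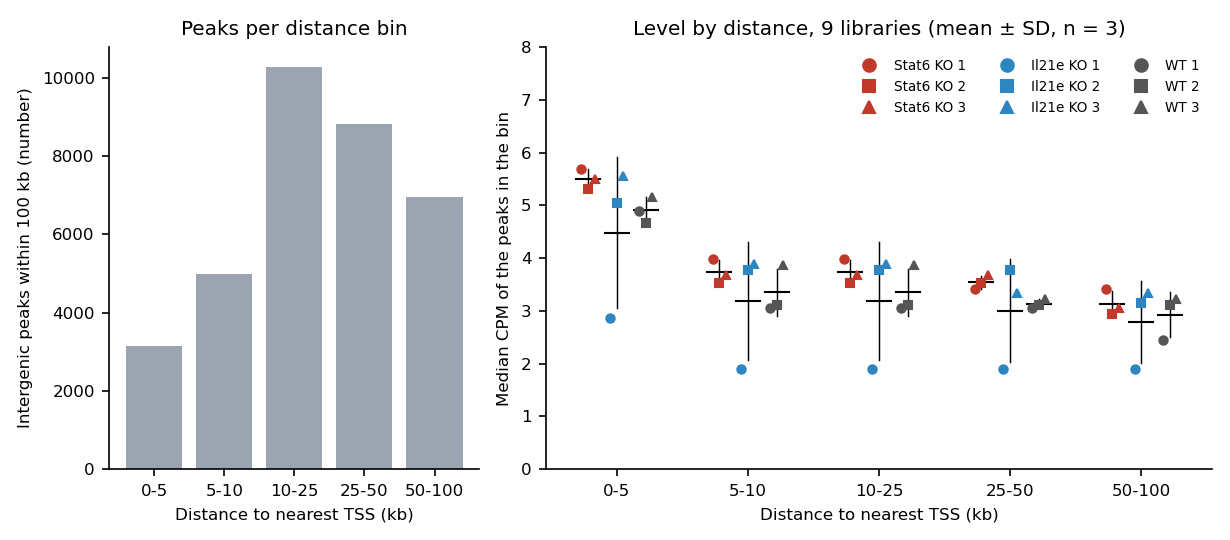
On the left is the number of near-gene intergenic peaks in 5 bins of distance to the nearest TSS in kb, and on the right the median CPM of the peaks of each bin in each library, with genotypes in colour, replicate numbers as marker shapes, and the mean ± SD of 3 libraries as lines. The bin within 5 kb is highest in every library, and Il21e KO 1 lies below the other 8 libraries in every bin.

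Per kb of peak, near-gene intergenic peaks lay between the desert and the TSS peaks. Their median level was 9.85 ± 0.42 CPM per kb in Stat6 KO, 8.31 ± 2.62 in Il21e KO and 8.96 ± 0.84 in WT (SD, n = 3). Desert peaks had 7.69 ± 0.48 CPM per kb in Stat6 KO, 6.40 ± 2.28 in Il21e KO and 6.99 ± 1.26 in WT. TSS peaks had 19.9 ± 0.60 CPM per kb in Stat6 KO, 22.2 ± 3.79 in Il21e KO and 21.2 ± 1.46 in WT. On the log2(CPM + 1) scale, without scaling by length, the near-gene median exceeded the desert median by 0.43 on average over the libraries, in 9 of 9 (exact sign-flip permutation p = 0.00391, adjusted over 3 such tests 0.00586). It exceeded the intron median by 0.34, with 8 libraries higher and 1 tied (exact permutation p = 0.00781, adjusted p = 0.00781). It was below the TSS median by 2.46 in 9 of 9 libraries (exact permutation p = 0.00391, adjusted p = 0.00586). All were 2-sided. Among only those peaks that passed the filter on low values, the difference from desert peaks was -0.021 (exact permutation p = 0.5).

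**Figure D2:**
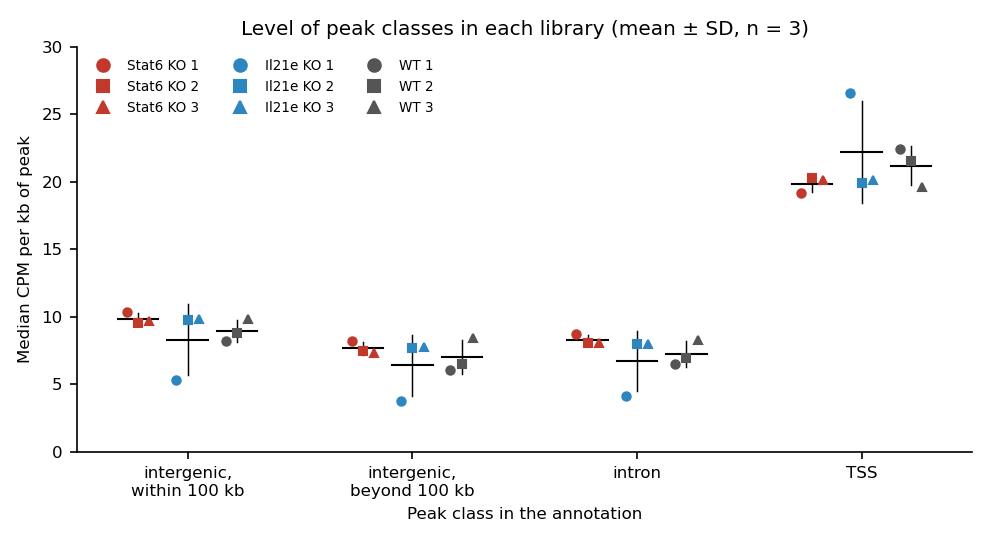
Median CPM per kb of peak (vertical axis) in 4 peak classes (horizontal axis) for each of the 9 libraries, with the mean ± SD of 3 libraries per genotype as lines. Near-gene intergenic peaks sit at 5.29 to 10.3 CPM per kb, and TSS peaks sit at 19.2 to 26.6, above them in every library.

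The share of a library's reads that fell in near-gene intergenic peaks overlapped between genotypes. It averaged 24.98 ± 0.351% in Stat6 KO, 23.9 ± 1.96% in Il21e KO and 24.4 ± 0.558% in WT (SD, n = 3), and single libraries ran from 21.7% to 25.4%. The lowest value is that of Il21e KO 1. By exact 2-sided permutation tests of 3 against 3 libraries, where 0.1 is the smallest p possible, p was 0.3 for Stat6 KO against WT, 1 for Il21e KO against WT and 0.7 for Stat6 KO against Il21e KO. Without Il21e KO 1, the mean of the Il21e KO libraries was 25.1%, above the 24.4% of WT by 0.682 percentage points (exact permutation p = 0.2), and the difference of Stat6 KO from Il21e KO was -0.0972 points (exact permutation p = 0.8).

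Peaks without a read made up 3.21%, 4.12% and 4.83% in Stat6 KO, 23.8%, 4.88% and 3.39% in Il21e KO, and 9.53%, 10.2% and 5.77% in WT. All Stat6 KO libraries were below all WT libraries, and as a group they also had more reads in peaks. Yet Stat6 KO 3 and WT 1, with 4.83% and 9.53%, had similar totals of 1634889 and 1634247 reads in peaks. After each library was thinned to 1049460 reads, the shares averaged 9.77 ± 0.84% in Stat6 KO, 14.6 ± 7.99% in Il21e KO and 13.4 ± 2.70% in WT (SD, n = 3). In Il21e KO, that average combined 23.8% in Il21e KO 1 with 10.2% and 9.81% in the other libraries. Without Il21e KO 1, the thinned difference of Il21e KO from WT was -3.43 percentage points (exact permutation p = 0.2), against 1.19 points with it. With all libraries, the exact permutation p stayed at 0.1 for Stat6 KO against WT, the smallest possible, and was 1 for Il21e KO against WT and 0.5 for Stat6 KO against Il21e KO. Over all 115727 peaks the thinned shares ran in the same order, with 10.1 ± 0.88% in Stat6 KO, 14.8 ± 7.55% in Il21e KO and 14.1 ± 3.09% in WT, so the pattern was not particular to near-gene intergenic peaks. The part of library quality in this difference was not tested.

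The 34217 peaks were nearest to 9034 genes, of which 8255 are protein coding in RefSeq. Most genes had few of them, with a median of 2 per gene, 2800 genes with a single peak, and 659 genes with 10 or more. Btg1, an antiproliferative factor that holds T cells in quiescence, had the most, at 57 peaks spread from 6.52 to 99.6 kb. S1pr1, the receptor that guides lymphocytes out of lymphoid organs, had 37, and Bach2, a repressor of effector differentiation, had 36. Tgfbr2, a receptor subunit for the inhibitory cytokine TGF-beta, had 32. Dad1, which lies beside the T cell receptor alpha genes, had 44, and C130026I21Rik had 48, of which 2 passed the filter on low values. Irf2bp2 and Zfp217 had 34 each, and Gm2447, Gm4759 and Klhl25 had 32 each.

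Summed over their peaks, Btg1 had 542, 549.9 and 587 CPM in Stat6 KO, 511.7, 563 and 550 CPM in Il21e KO, and 538, 589 and 561 CPM in WT. Bach2 had 452, 459 and 478 CPM in Stat6 KO, 526, 475 and 487 CPM in Il21e KO, and 497, 487 and 511 CPM in WT. The Btg1 values overlapped between all genotypes, while for Bach2 all Stat6 KO libraries were below all WT libraries. A limma-trend fit on the summed reads of each gene gave Bach2 a log2 fold change of -0.10 in Stat6 KO against WT with an adjusted p of 0.995.

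**Figure D3:**
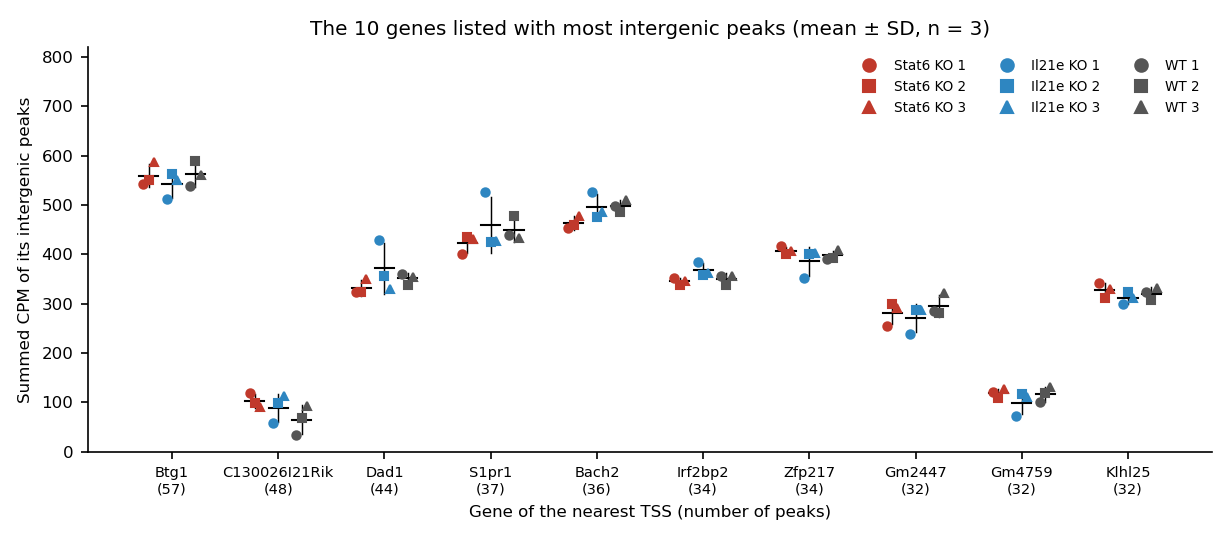
Summed CPM of the near-gene intergenic peaks (vertical axis) of 10 genes with the most such peaks, whose number stands in brackets under each name, in each of the 9 libraries with the mean ± SD of 3 per genotype. Btg1 sums to between 511.7 and 589 CPM, and C130026I21Rik, with 48 peaks, to between 33.0 and 118 CPM, while Tgfbr2, which also has 32 peaks, is not drawn.

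Among single peaks, the highest average lay 43.9 kb from Fam105a, with 74.3 ± 5.92 CPM in Stat6 KO, 80.9 ± 12.2 in Il21e KO and 80.3 ± 3.46 in WT (SD, n = 3). A peak 14.1 kb downstream of Slfn2, a gene required for T cell quiescence, had 67.6, 64.8 and 64.2 CPM in Stat6 KO, 111, 76.9 and 80.4 CPM in Il21e KO, and 78.9, 87.2 and 74.8 CPM in WT. It was lower in every Stat6 KO library than in any WT library, with a log2 fold change of -0.29 ± 0.14 (SE) that did not pass (limma-trend adjusted p = 1.00). The other 8 of the 10 highest peaks were nearest to Coq2, Gng2, S100a2, Cxxc5, Rps14, Aqp11, Sim2 and Utrn, and their log2 fold changes in Stat6 KO against WT were between -0.27 and -0.01.

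At the genes for which the alleles are named, 0 near-gene intergenic peaks passed the test described below. Stat6 was the nearest gene of 1 such peak, 6.17 kb upstream, with 6, 2 and 1 reads in Stat6 KO, 0, 1 and 1 in Il21e KO and 0 in each WT library, too few for a test. Il21 was the nearest gene of 16, with 5 upstream and 11 downstream between 11.4 and 52.4 kb. Their summed level was 96.6, 95.4 and 107 CPM in Stat6 KO, 89.6, 92.6 and 86.6 CPM in Il21e KO, and 98.5, 95.8 and 88.3 CPM in WT. Il21e KO and WT overlapped. None of the 16 was without reads in all Il21e KO libraries, and the 4 with at most 3 reads in each Il21e KO library had at most 3 reads in each WT library as well.

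Of the 16 Il21 peaks, 8 passed the filter on low values, and 0 passed the test in any of the 3 comparisons by limma-trend, edgeR, DESeq2 or limma-voom. In Il21e KO against WT, 1 of the 8 had an unadjusted p under 0.05 in limma-trend. This peak, 27.1 kb upstream, had 9, 10 and 6 reads in Stat6 KO, 2, 8 and 8 in Il21e KO, and 15, 10 and 10 in WT. Its log2 fold change in Il21e KO against WT was -0.93 ± 0.39 (SE, limma-trend adjusted p = 1.00). In CPM, both knockouts were below every WT library, so the lower level was not particular to Il21e KO. In Stat6 KO against WT, the log2 fold change was -0.59 ± 0.39 (SE). At this depth, the listed near-gene peaks showed no loss of reads that would locate the deleted DNA.

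Loss of STAT6 was accompanied by lower accessibility at 4 near-gene intergenic peaks and by higher accessibility at 0. All tests used limma-trend on log2(CPM + 1) with all 9 libraries, adjusted over the 48287 peaks of the whole table that passed a filter on low values, at a false discovery rate (FDR) of 0.05. Of the 34217 peaks, 13886 passed that filter, and 20331 were set aside and have no test. Among all peaks tested, 0.0104% were lower at this threshold, and 0% were higher. At an unadjusted p under 0.05, 245 near-gene intergenic peaks were higher and 159 lower, which together are 404, against shares of 1.68%, 1.62% and, in either direction, 3.29% of all peaks tested. edgeR called 1 higher and 4 lower, and DESeq2 and limma-voom called 1 higher and 3 lower each. The shares of all peaks called by these tools are not given here, so the counts say nothing particular to near-gene peaks. The groups did not overlap at 1683 of the 13886 peaks, which is 12.1%, against 13.2% of all peaks tested. In Stat6 KO, 926 of these were higher, against 6.31% of all peaks tested, and 757 lower, against 6.89%. The median log2 fold change was 0.02, against -0.00 over all peaks tested.

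The strongest loss lay 10.1 kb upstream of Scpep1os, an RNA transcribed opposite to Scpep1 (chromosome 11, 88756609 to 88757743). It had 0, 1.18 and 0 CPM in Stat6 KO, 33.4, 27.1 and 25.5 CPM in Il21e KO, and 22.0, 37.4 and 34.2 CPM in WT. The Stat6 KO libraries together held 2 reads there, against 124 in Il21e KO and 137 in WT. Per read in peaks, WT was 78.1 times as high as Stat6 KO, with an exact 95% interval of 21.2 to 651 that covers counting error only. The log2 fold change against WT was -4.60 ± 0.31 (SE), with a limma-trend adjusted p of 1.31e-06.

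A peak 56.7 kb upstream of Snx13, a sorting nexin of endosomes (chromosome 12, 35674659 to 35675659), kept a low level. It had 5.68, 1.77 and 1.83 CPM in Stat6 KO, 32.4, 29.6 and 26.6 CPM in Il21e KO, and 31.8, 29.6 and 28.4 CPM in WT. The highest Stat6 KO library was far below the lowest of the other 6. The log2 fold change against WT was -3.05 ± 0.28 (SE, limma-trend adjusted p = 6.41e-05).

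The other 2 losses lay 96.1 and 76.9 kb upstream of Agr2, an endoplasmic reticulum protein best known from secretory epithelia (chromosome 12, 36622808 to 36624051 and 36642250 to 36642901). Each held 1, 0 and 1 reads in the Stat6 KO libraries. The far one had 9, 20 and 23 reads in Il21e KO and 19, 15 and 19 in WT, and the near one had 9, 13 and 17 in Il21e KO and 20, 11 and 12 in WT. Log2 fold changes against WT were -3.24 ± 0.37 and -2.92 ± 0.43 (SE), with limma-trend adjusted p of 0.00126 and 0.0259. The far peak missed the threshold without WT 2 (adjusted p = 0.0654) and without WT 3 (0.0681), over a range of 6.47e-10 to 0.0681. The near peak missed it in 10 alternatives, with adjusted p between 6.57e-07 and 0.675, among them without Stat6 KO 2, Il21e KO 2 or 3, or WT 1, 2 or 3.

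**Figure D4:**
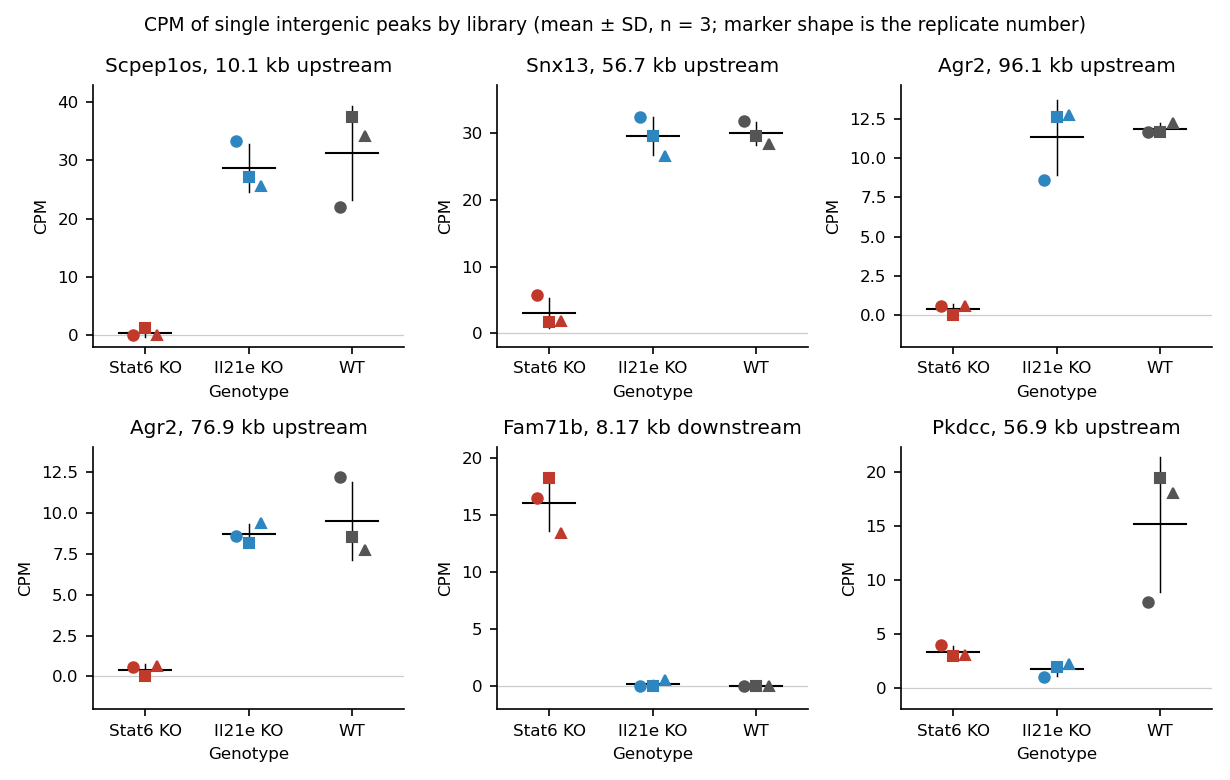
CPM per library (vertical axis) by genotype (horizontal axis) for the 4 peaks that passed in Stat6 KO against WT and for the peaks near Fam71b and Pkdcc, with the mean ± SD of 3 libraries as lines and replicate numbers as marker shapes. At the 4 peaks the Stat6 KO libraries stay at or below 5.68 CPM while all others are at or above 7.74 CPM, and near Fam71b only Stat6 KO is above 1 CPM.

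Within 100 kb of the Scpep1os peak, 9 other peaks were tested, with log2 fold changes in Stat6 KO against WT between -0.39 and 0.20 and a median of -0.10, and 0 of them passed (limma-trend). Around the Snx13 peak 3 others were tested, with log2 fold changes between -2.22 and 0.38, a median of -0.34 and 0 calls. Apart from the pair near Agr2, then, 0 tested neighbours of a called peak passed. The tested neighbours of the far Agr2 peak that were not called had a median of -0.50, with 3 lower and 1 higher. For the near Agr2 peak the median was -0.31, with 4 lower and 1 higher. These windows overlap. Between the pair near Agr2, another intergenic peak 77.9 kb from the gene had 6, 1 and 3 reads in Stat6 KO, 4, 12 and 8 in Il21e KO, and 8, 8 and 13 in WT. Its log2 fold change in Stat6 KO against WT was -1.44 ± 0.49 (SE, limma-trend adjusted p = 1.00). All Stat6 KO libraries were below all WT libraries.

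A peak 8.17 kb downstream of Fam71b showed the opposite pattern but did not pass in the fit of all 9 libraries (chromosome 11, 46226068 to 46226741). It held 29, 31 and 22 reads in Stat6 KO, 0, 0 and 1 in Il21e KO, and 0 in each WT library. Set against a floor of 3 reads over the WT libraries together, Stat6 KO was at least 24.0-fold higher, and an exact 95% interval of the ratio, which also counts the error of the Stat6 KO reads, began at 19.1. The log2 fold change was 4.08 ± 0.87 (SE, limma-trend adjusted p = 0.939). It passed in 9 alternatives, among them edgeR (5.13e-05), DESeq2 (0.000175) and limma-voom (0.00378), over a range of 7.24e-07 to 1.00. Only 8.55 kb away, a peak 15.5 kb upstream of Med7, a subunit of the Mediator complex, had 57, 62 and 42 reads in Stat6 KO, 11, 30 and 29 in Il21e KO, and 25, 17 and 32 in WT (0.91 ± 0.24, adjusted p = 1.00).

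Fixed limits on reads, without a model, singled out few peaks. Near-gene intergenic peaks with at most 3 reads in every Stat6 KO library and at least 10 in every WT library numbered 3, and all 4 such peaks of the table are 0.00346% of it. They were the Scpep1os peak and both Agr2 peaks. In the opposite direction, at most 3 reads in every WT library and at least 10 in every Stat6 KO library, there were 3, against 0.00691% of all peaks. These lay near Fam71b, near Gm12171 and 10.7 kb downstream of Pde12, an enzyme that degrades 2′,5′-linked oligoadenylates. The Gm12171 peak lay in the same part of chromosome 11 as the Fam71b peak (46444890 to 46445569). At the Pde12 peak, Il21e KO had 5, 10 and 12 reads, against 3, 3 and 2 in WT. The higher level there was thus not particular to Stat6 KO. Between Il21e KO and WT, 0 peaks of the table met these limits in either direction. From Stat6 KO against Il21e KO, 1 near-gene intergenic peak, that of Scpep1os, was low in Stat6 KO and high in Il21e KO, against 0.00605% of all peaks. The peaks near Fam71b, Tspan1 and Add2 were low in Il21e KO and high in Stat6 KO, against 0.00259% of all peaks. These limits were chosen after the data were seen.

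In Il21e KO against WT, 0 near-gene intergenic peaks passed by limma-trend, edgeR, DESeq2 or limma-voom, as did 0% of all peaks tested by limma-trend. At an unadjusted p under 0.05, 157 were higher and 335 lower, together 492, against shares of 1.1%, 2.41% and, in either direction, 3.52% of all peaks tested. The groups did not overlap at 1077 peaks, which is 7.76%, against 7.28% of all peaks tested. In Il21e KO, 410 of these were higher, against 2.84% of all peaks tested, and 667 lower, against 4.44%. The median log2 fold change was -0.05, against -0.03 over all peaks, and it was 0.03 without Il21e KO 1, against 0.00 over all peaks. The balance of directions turned without that library. An unadjusted p under 0.05 was then found at 506 higher and 349 lower peaks, against 3.16% and 3.74% of all peaks tested. Groups without overlap then numbered 1650 higher and 1221 lower, against 10.6% and 10.8% of all peaks tested.

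The smallest p in Il21e KO belonged to a peak 56.9 kb upstream of Pkdcc, which encodes a secreted protein kinase (chromosome 17, 83557263 to 83558202). It had 3.98, 2.94 and 3.06 CPM in Stat6 KO, 0.953, 1.89 and 2.22 CPM in Il21e KO, and 7.95, 19.5 and 18.1 CPM in WT. Both knockouts were below every WT library. The log2 fold change in Il21e KO against WT was -2.53 ± 0.43 (SE, limma-trend adjusted p = 0.875), and that in Stat6 KO against WT was -1.82 ± 0.43 (adjusted p = 1.00). Both comparisons use the same WT libraries, of which WT 1 was the lowest. Without Il21e KO 1, both passed by limma-trend, with adjusted p of 0.00950 in Il21e KO and 0.00619 in Stat6 KO, over ranges of 0.00950 to 1.00 for Il21e KO and 0.00112 to 1.00 for Stat6 KO.

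Other peaks with small p in Il21e KO against WT did not pass either. Peaks near Irs2, which relays insulin receptor signals, and near Klf14 had log2 fold changes of 1.06 ± 0.29 and 1.28 ± 0.36 (SE). A peak 30.6 kb upstream of Hymai, an imprinted noncoding transcript, had 4.76, 11.3 and 11.1 CPM in Il21e KO and 15.3, 24.1 and 19.3 CPM in WT, without overlap, and a log2 fold change of -1.09 ± 0.27 (SE). Adjusted p was 1.00 for each of these by limma-trend.

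Stat6 KO against Il21e KO gave the same 4 lower peaks and 0 higher ones. Among all peaks tested, 0.0104% were lower and 0% were higher. The log2 fold changes were -4.51 for the Scpep1os peak, -3.02 for the Snx13 peak, and -3.16 and -2.83 for the far and the near Agr2 peak, with limma-trend adjusted p of 1.83e-06, 9.90e-05, 0.00180 and 0.0385. This comparison shares its Stat6 KO libraries with the one against WT, so it is not independent of it. At an unadjusted p under 0.05, 478 were higher and 218 lower, together 696, against 3.31%, 2.38% and, in either direction, 5.68% of all peaks tested. The groups did not overlap at 1526 peaks, against 11% of all peaks tested, with 997 higher in Stat6 KO, against 6.45%, and 529 lower, against 4.59%. The median log2 fold change was 0.08, against 0.04 over all peaks, and it was -0.01 without Il21e KO 1, as over all peaks. Without that library, an unadjusted p under 0.05 was found at 266 higher and 273 lower peaks, against 1.99% and 1.89% of all peaks tested. Groups without overlap then numbered 1377 higher and 1554 lower, against 10.1% and 10.7% of all peaks tested.

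The far Agr2 peak missed the threshold in a fit of the 2 genotypes alone (adjusted p = 0.863, over a range of 2.30e-10 to 0.863). The near one missed it in 13 alternatives, with adjusted p between 1.55e-06 and 0.863. These included the fit without each Stat6 KO library, Il21e KO 2 or 3, or each WT library in turn. A peak 20.3 kb upstream of Tspan1, a tetraspanin, had 15, 10 and 11 reads in Stat6 KO, 2, 3 and 3 in Il21e KO, and 8, 9 and 10 in WT. The Il21e KO libraries were below all others, and the difference from Stat6 KO did not pass (limma-trend adjusted p = 0.780).

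Genes of T cell identity and fate had many near-gene intergenic peaks, and 0 of these passed in any comparison. In a list of naive and quiescence genes, 25 of 27 genes had 394 such peaks with a median mean level of 5.82 CPM, of which 211 were tested. Genes of the early T cell receptor response had 250, with a median of 6.82 CPM and 135 tested, and follicular helper genes had 166, with 4.03 CPM and 69 tested. Genes of the IL-4 and STAT6 pathway had 73, with a median of 2.46 CPM and 28 tested, Th2 genes had 69, with 3.17 CPM and 28 tested, and Th1 genes had 70, with 4.88 CPM and 32 tested. Over the 17 lists together, 709 peaks were tested and 0 were called by limma-trend, edgeR, DESeq2 or limma-voom in any of the 3 comparisons. Those with an unadjusted p under 0.05 in limma-trend numbered 25 in Stat6 KO against WT (3.53%, against 3.29% of all peaks tested), 21 in Il21e KO against WT (2.96%, against 3.52%) and 28 in Stat6 KO against Il21e KO (3.95%, against 5.68%).

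The other 11 lists had from 5 peaks, for erythroid genes, to 174, for cytokine and JAK-STAT genes. In Stat6 KO against WT, the median log2 fold change was -0.07 for the IL-4 and STAT6 pathway, 0.00 for Th2 genes, -0.02 for naive and quiescence genes and 0.03 for the early receptor response. In Il21e KO against WT, the medians were -0.13 for the IL-4 and STAT6 pathway, -0.17 for Th2 genes, -0.03 for naive and quiescence genes and -0.03 for the early receptor response, against -0.03 over all peaks tested. Without Il21e KO 1 they were -0.0017 for the IL-4 and STAT6 pathway, -0.07 for Th2 genes, 0.02 for naive and quiescence genes and -0.02 for the early receptor response, against 0.00 over all peaks. Among the 211 tested peaks of naive and quiescence genes, Stat6 KO and WT did not overlap at 26, with 11 higher and 15 lower, against the 13.2% given above for all peaks. Among the 28 of the IL-4 and STAT6 pathway this held for 1, which was higher.

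For 34 of 39 T cell genes, the tested intergenic peak nearest to the TSS can be given. Stat4, Foxp3, Rora and Maf were among the genes without one. The peak 8.47 kb upstream of Il4ra, the IL-4 receptor chain, had 11.9, 7.07 and 12.2 CPM in Stat6 KO, 3.81, 15.8 and 13.3 CPM in Il21e KO, and 12.8, 9.34 and 14.8 CPM in WT. The peak 76.9 kb downstream of Gata3, the Th2 master regulator, had 17.1 ± 0.04 CPM in Stat6 KO, 14.8 ± 2.94 in Il21e KO and 18.4 ± 2.14 in WT (SD, n = 3). The genotypes overlapped at both, except that every Stat6 KO library was above every Il21e KO library at Gata3.

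Of these 34 peaks, 0 passed by limma-trend, edgeR, DESeq2 or limma-voom in any comparison. At an unadjusted p under 0.05 in limma-trend there were 2 in Stat6 KO against WT, 2 in Il21e KO against WT and 0 in Stat6 KO against Il21e KO, beside 3.29%, 3.52% and 5.68% of all peaks tested. A peak 8.68 kb downstream of Cd69, an early activation receptor that retains cells in lymphoid organs, had 16.5, 24.1 and 18.3 CPM in Stat6 KO, 12.4, 15.8 and 16.6 CPM in Il21e KO, and 10.4, 16.3 and 8.38 CPM in WT. Every Stat6 KO library exceeded every WT library, with a log2 fold change of 0.73 ± 0.24 (SE, unadjusted p = 0.00816, adjusted p = 1.00 in limma-trend). A peak 17.9 kb downstream of Ifng, the Th1 cytokine interferon gamma, was lower in both knockouts than in every WT library, with 6.27 ± 1.75 CPM in Stat6 KO, 5.81 ± 0.81 in Il21e KO and 9.92 ± 0.89 in WT. Against the same WT libraries, its log2 fold changes were -0.61 ± 0.29 in Stat6 KO and -0.69 ± 0.29 in Il21e KO (SE, limma-trend adjusted p = 1.00 for both). Near Socs1, an inhibitor of cytokine receptor signalling, Il21e KO had 9.30 ± 4.81 CPM, against 14.6 ± 0.43 in WT, and the lowest library was Il21e KO 1. The log2 fold change there was -0.74 with all libraries and -0.26 without Il21e KO 1 (limma-trend adjusted p = 0.862, over a range of 0.675 to 1.00).

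**Figure D5:**
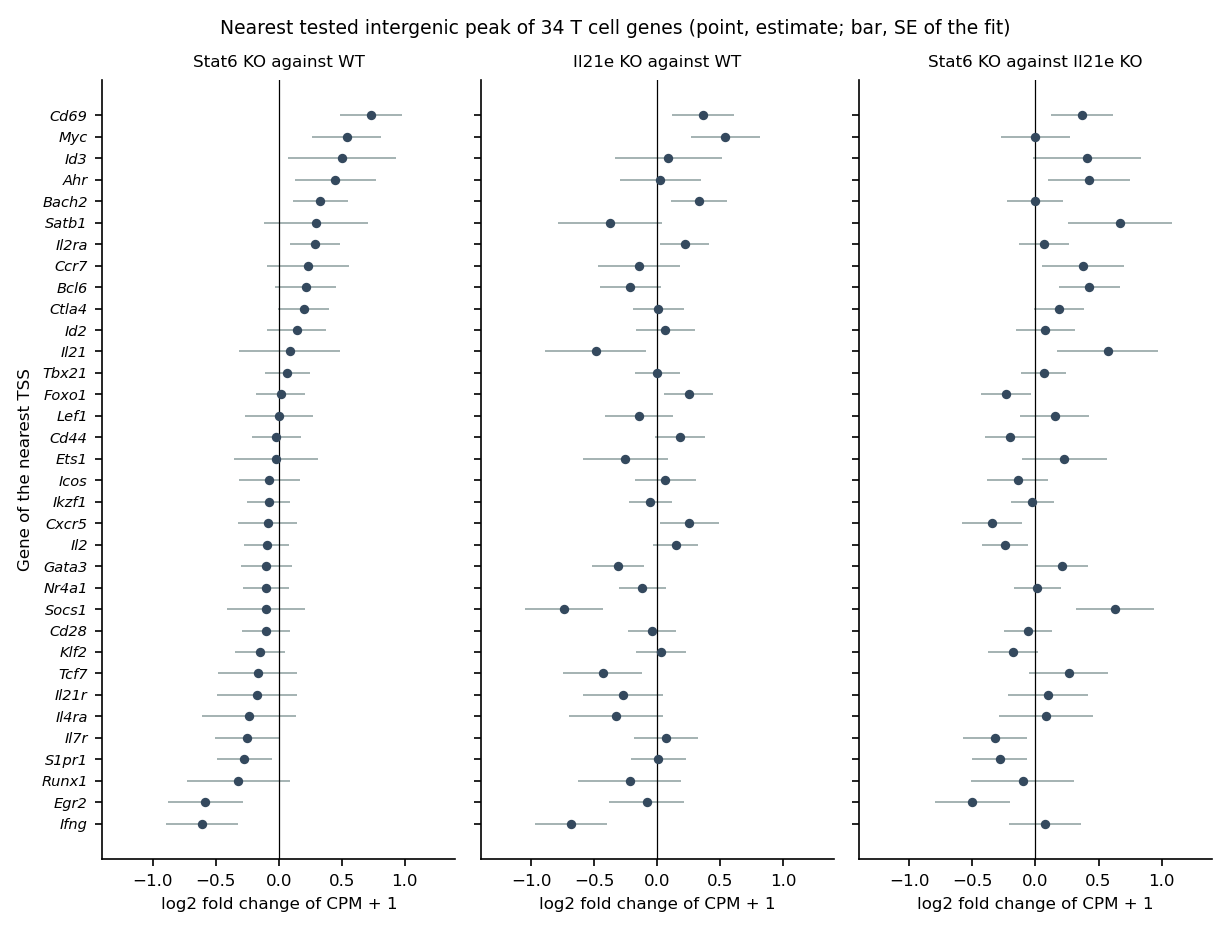
Log2 fold change of CPM + 1 (horizontal axis) of the tested intergenic peak nearest to the TSS of each of 34 T cell genes (vertical axis), in 3 comparisons, with the SE of the limma-trend fit as bars. Estimates run from -0.61 at Ifng to 0.73 at Cd69 in Stat6 KO against WT, and 0 of the 34 pass the threshold in any panel.

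Without Il21e KO 1, more near-gene intergenic peaks passed. In Stat6 KO against WT there were 21, with 9 higher and 12 lower, among them the 4 of the full fit. Of all peaks tested, 0.126% passed, 0.058% higher and 0.0683% lower. The comparison itself uses no Il21e KO library, which enters only the shared estimate of spread. By limma-trend, with the log2 fold change and adjusted p in brackets, the peaks added included those near Fam71b (4.08, adjusted p = 0.000125), Vps26a, a subunit of the retromer (1.27, 0.00164), Pkdcc (-1.82, 0.00619), Med7 (0.91, 0.0107), Pwwp2a (-1.56, 0.0384) and Rgs8 (-0.93, 0.0253). A peak 18.9 kb upstream of G530011O06Rik on chromosome X was also added, with 27.3, 28.9 and 24.5 CPM in Stat6 KO, 60.0, 37.2 and 44.4 CPM in Il21e KO, and 50.8, 56.8 and 56.1 CPM in WT (-0.997, 1.59e-05). With all libraries, its adjusted p was 0.195, and that of the other 16 added peaks was 0.939 or more. In Il21e KO against WT, 1 passed, the Pkdcc peak, which was lower, against 0.00414% of all peaks in either direction, 0.00207% higher and 0.00207% lower. In Stat6 KO against Il21e KO, 7 passed, with 2 higher and 5 lower, against 0.0352% of all peaks, 0.00828% higher and 0.0269% lower.

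The 21 peaks were unevenly spread over the chromosomes, which was not tested. Chromosome 11 held 6 of them (28.6%) and 7.42% of the tested near-gene peaks, and chromosome 12 held 4 (19.0%) and 4.30%. Chromosomes X, 1 and 8 held 2 each (9.52%), beside 1.87%, 7.80% and 4.29% of the tested near-gene peaks. The 2 on chromosome X lay 18.9 and 12.4 kb upstream of G530011O06Rik, and both were lower in Stat6 KO (log2 fold changes of -0.997 and -0.938). On chromosome 11, 5 of the 6 lay between 43446098 and 46235571, a span of 2.79 Mb with 25 tested near-gene peaks, and 3 of the 5 were higher and 2 lower in Stat6 KO. The median log2 fold change of the 25 was 0.07. The span was drawn around the 5 called peaks after the data were seen, so their density in it is no separate result. Some of the 5 are close neighbours, such as the Fam71b and Med7 peaks, 8.55 kb apart. The part of DNA differences between the mouse lines in these positions was not tested.

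Summing the reads of all near-gene intergenic peaks per nearest gene, a step added after the data were seen, left 6658 genes to test with limma-trend. Scpep1os, with its single peak, passed as 1 lower gene in Stat6 KO against WT (0.015% of genes tested) and in Stat6 KO against Il21e KO (0.015%). Between Il21e KO and WT, 0 genes (0%) passed, and 198 had an unadjusted p under 0.05. Without Il21e KO 1, 23 genes passed in Stat6 KO against WT (0.345% of genes tested), 6 in Il21e KO against WT (0.0901%) and 5 in Stat6 KO against Il21e KO (0.0751%).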

How the data were processed

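The authors deposited 1 table of 115727 peaks with a CPM value per library, relative to that library's reads in these peaks. Bowtie 1.3.0, MACS2 2.0, HOMER and the mm9 build are named per the submitters' processing notes, without the role of each, and how peaks were merged is not given in the sources used here. In each library, 100% of values were whole multiples of 1 step within 0.01 of it. CPM alone cannot show that this step is 1 read, which was assumed here, and it equals 0.555 to 0.953 CPM, which gave 1049460 to 1802405 reads per library. In 1 library a count of 0 allows up to 3 reads, or 1.66 to 2.86 CPM, and in a group without any read the floor is 3 reads over its libraries together. Intervals cover counting error only.

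Chi-square per degree of freedom between pairs of libraries ran from 0.723 to 3.09. Values under 1 occurred within and between genotypes (0.752 for Stat6 KO 2 and Il21e KO 3), the recovered totals differed, and all libraries were kept as separate replicates.

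The shifted gene columns were read by content. Distance ran from the peak midpoint to the nearest listed TSS, and desert peaks are the intergenic ones farther than 100 kb. Peaks were filtered with filterByExpr (edgeR 4.0.16, minimum count 10, minimum total 15) and tested with limma-trend on log2(CPM + 1) in R 4.3.3 with limma 3.58.1, 1 coefficient per genotype, all 9 libraries, with Benjamini-Hochberg adjustment over 48287 peaks at FDR 0.05. Fold changes are on the log2(CPM + 1) scale and understate changes of low peaks. The reads recovered from the table were also tested with edgeR, DESeq2 1.42.0 and limma-voom. These made 5, 4 and 4 calls in Stat6 KO against WT. Other alternatives changed the pseudocount (0.25 and 5), filter, scaling, library weights, samples fitted, distance limit (50 kb) and the distance from the peak edge. Values without Il21e KO 1 that go beyond the calls were added after the data were seen. The pipeline was tested on simulated data.

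Peaks were named by the gene of the nearest TSS: those past the threshold, then 5 per direction by p (1 per gene, unnamed loci left out), the 10 highest, the 10 genes with most peaks, the nearest tested peak of 39 T cell genes, and 3 on each side of the limit. Unnamed loci among the richest genes, and peaks near Gm12171, Pwwp2a, Add2, G530011O06Rik and the Agr2 peak that was not called, were named after their values were seen. The peak set, the gene lists and the rules were chosen with earlier results of these data known. Sequences are not shown, since no mm9 genome was used here.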

Additional observations from a re-analysis of the deposited data

How the results depend on the processing

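The number of calls changed most with array weights and without Il21e KO 1, and the cause was not tested. The shares of all peaks called are given above for the fit without Il21e KO 1, but not for the other alternatives. In Stat6 KO against WT, the 4 calls became 15 in a fit of those genotypes alone and 28 with array weights. They ran from 2 (without WT 2 or without WT 3) to 21 (without Il21e KO 1) when libraries were left out. With a limit of 50 kb, 1 remained, because the Snx13 peak and both Agr2 peaks lie farther out and left the set. In Il21e KO against WT, the 0 calls became 1 without the filter, 2 with array weights, and 0 to 1 over left-out libraries. In Stat6 KO against Il21e KO, the 4 calls became 2 in a fit of those genotypes alone, 12 with array weights, and 3 to 7 over left-out libraries. At 50 kb there was 1, for the same reason as above. Calls on reads summed per gene ran from 1 to 23, 0 to 6 and 1 to 5 in the 3 comparisons, each maximum being without Il21e KO 1. Replicate numbers did not pair the libraries (correlations of deviations of same-numbered libraries from -0.19 to 0.25), and with the replicate block there were 3, 0 and 3 calls.

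Over the near-gene intergenic peaks that passed the filter, Stat6 KO and WT differed by -0.00664 percentage points in the share of reads, by -0.0120 in peaks without a read and by -0.0252 after thinning. Without the filter, their median log2 fold change was 0.085. The level against desert peaks reversed to -0.021 among filtered peaks. Low counts limit the rest: 20331 of the 34217 peaks had too few reads for a test, and a 1-read step was 0.555 to 0.953 CPM.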

Other observations

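Several of the genes with the most near-gene intergenic peaks are unnamed loci or belong to gene families with similar copies, and how reads were divided between copies was not tested. C130026I21Rik had 48 peaks, of which 2 passed the filter, and their summed level was 118, 98.9 and 89.9 CPM in Stat6 KO, 57.2, 97.7 and 112 CPM in Il21e KO, and 33.0, 68.5 and 91.6 CPM in WT. Prl2c3, of the prolactin-related family, had 31 peaks, of which 0 passed the filter. Its sums were 59.7, 54.8 and 39.8 CPM in Stat6 KO, 33.4, 59.2 and 53.3 CPM in Il21e KO, and 14.7, 31.1 and 42.6 CPM in WT. Both ranges were wide within a genotype, and WT 1 was the lowest of the 9 libraries at both.

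With the reads of all near-gene intergenic peaks summed per nearest gene and Il21e KO 1 left out, 23 of 6658 genes passed in Stat6 KO against WT (0.345%), 15 higher and 8 lower. Gimap4, a GTPase of lymphocyte survival, was among the lower ones, with 30.7, 30.6 and 24.5 CPM over 5 peaks in Stat6 KO and 44.1, 42.0 and 50.9 CPM in WT (log2 fold change -0.66, limma-trend adjusted p = 0.0219). Il21e KO had 19.1, 35.9 and 29.4 CPM there, so both knockouts were below every WT library. Ada, the adenosine deaminase whose loss causes immune deficiency, had 3.41, 4.12 and 1.22 CPM over 2 peaks in Stat6 KO and 10.4, 7.79 and 9.03 CPM in WT (-1.44, adjusted p = 0.0316). In Il21e KO, Ada had 0, 9.45 and 8.32 CPM. With all libraries, both had an adjusted p of 0.995.

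Between Il21e KO and WT, without that library, 6 genes (0.0901%) passed and all 6 were higher. Crebl2, a transcription factor related to CREB, had 42.2 and 37.2 CPM over 4 peaks in Il21e KO 2 and 3, against 18.4, 18.7 and 11.6 CPM in WT (1.27, adjusted p = 0.00167), while Il21e KO 1 had 12.4 CPM. The other 5 were Gm15319, Gm21276, Zfp985, Zfp709 and Prl2c3, which are unnamed loci or members of large gene families. In the same fit, Gm15319 and Prl2c3 also passed as higher in Stat6 KO against WT (0.72 and 0.88, limma-trend adjusted p = 0.0219 and 0.0305). At Zfp709, Stat6 KO had 31.3, 27.7 and 24.5 CPM, against 9.18, 21.8 and 21.9 CPM in WT. The higher level at Gm15319, Prl2c3 and Zfp709 was thus not particular to Il21e KO. At Gm21276 and Zfp985, Stat6 KO overlapped WT. WT 1 was the lowest WT library at each of the 5.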
